A study of Mus musculus with 4 samples.

Results

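A set of 10 genes that mark natural killer (NK) cells and cytotoxic T cells was followed through bulk RNA-seq libraries of mouse peritoneal macrophages. They encode granule proteins (*Prf1*, *Gzma*, *Gzmb*, *Ctsw* and *Nkg7*), cell surface receptors (*Ncr1*, *Klrk1*, *Klrd1* and *Klrb1c*) and a cytokine receptor chain (*Il2rb*). The genes were chosen by name as a cytotoxic lymphocyte list, from among markers whose levels in these same 4 libraries were already known. Their levels and ratios are therefore given as a description, and no test is used as support for them. All 10 had a row in the table, out of 15298 genes.

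The mice were 6-week-old females of the BALB/c strain. Microcurrent stimulation (MCS) was a pulsed current passed for 15 min through pads on the abdomen and back under isoflurane, and controls were handled alike with the current off. Cells were collected at Zeitgeber time (ZT) 2, directly after the procedure, or at ZT14, 12 h later, and CD11b+ F4/80+ Ly6G- cells were sorted as macrophages. Each of the 4 conditions (control and MCS, each at ZT2 and at ZT14) had 1 library, and how many mice each library came from was not given in the sources used here. No spread between replicates exists, and a difference between libraries may be one between mice, sorts or libraries as much as between conditions.

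NK cells and cytotoxic T cells kill by releasing granules that hold perforin, which opens the membrane of the target cell, and granzymes, proteases that enter and start cell death. Their activating and inhibitory receptors read ligands on other cells, and interleukin-2 and interleukin-15, acting through a shared receptor chain, keep them alive and drive their effector genes. NK cells are resident in the peritoneal cavity, where macrophages, B cells and mast cells are also found.

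Promoters of the members are shown because all of those read, the first entry of each gene, held the same short run of bases. The RefSeq promoter table for the mouse build GRCm38.p6 (250 bases before to 50 bases after a transcript start) had entries for 7 of the 10 genes, namely *Gzma*, *Gzmb*, *Prf1*, *Nkg7*, *Ncr1*, *Klrk1* and *Klrb1c*. Of these, 4 are printed 5′ to 3′ on the strand of the gene, 3 for the proteins that carry out killing and 1 for the receptor NKp46, with capitals marking each match to TGTGGT or its reverse complement ACCACA, the core letters that RUNX transcription factors are known to bind. They lie at chr14:56262285-56262584 on the minus strand (*Gzmb*), chr13:113100932-113101231 on the minus strand (*Gzma*), chr10:61297586-61297885 on the plus strand (*Prf1*) and chr7:4337465-4337764 on the plus strand (*Ncr1*).
Gzmb promoter: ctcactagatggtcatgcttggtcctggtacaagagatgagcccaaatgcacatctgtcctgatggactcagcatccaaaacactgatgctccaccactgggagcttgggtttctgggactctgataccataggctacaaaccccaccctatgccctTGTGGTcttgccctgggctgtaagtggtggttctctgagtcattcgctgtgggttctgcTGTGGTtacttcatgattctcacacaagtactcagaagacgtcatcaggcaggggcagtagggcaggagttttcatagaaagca
Gzma promoter: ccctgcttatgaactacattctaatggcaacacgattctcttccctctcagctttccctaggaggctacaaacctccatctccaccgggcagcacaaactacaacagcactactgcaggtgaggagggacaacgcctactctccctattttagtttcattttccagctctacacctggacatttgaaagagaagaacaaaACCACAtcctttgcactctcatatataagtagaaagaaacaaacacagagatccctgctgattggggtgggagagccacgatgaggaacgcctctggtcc
Prf1 promoter: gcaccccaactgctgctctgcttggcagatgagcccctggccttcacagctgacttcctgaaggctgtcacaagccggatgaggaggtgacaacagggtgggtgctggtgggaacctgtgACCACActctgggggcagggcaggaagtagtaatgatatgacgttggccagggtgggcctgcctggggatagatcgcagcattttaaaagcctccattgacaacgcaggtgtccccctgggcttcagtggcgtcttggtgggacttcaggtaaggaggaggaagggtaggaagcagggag
Ncr1 promoter: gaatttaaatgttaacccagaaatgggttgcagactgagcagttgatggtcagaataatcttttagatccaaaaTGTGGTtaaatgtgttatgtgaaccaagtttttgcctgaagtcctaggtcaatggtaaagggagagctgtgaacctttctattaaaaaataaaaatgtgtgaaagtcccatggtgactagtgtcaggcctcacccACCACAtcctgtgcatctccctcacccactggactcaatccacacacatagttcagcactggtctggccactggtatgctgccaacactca

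The first bases of the matches lay 93 and 34 bases before the start in *Gzmb*, 50 bases before it in *Gzma*, 130 bases in *Prf1* and 176 and 41 bases in *Ncr1*. Those of the promoters not printed lay at 83 bases (*Nkg7*), 129 bases (*Klrk1*) and 89 bases (*Klrb1c*). TGTGGT was thus present, on either strand, in 7 of 7 member promoters and in 16.8% of all 32851 promoters of the same length. The latter share counts every entry, where members and the other lists were read by the first entry of each gene. Read in that way, 1527 of the 11487 measured genes with an entry held TGTGGT (13.3%). These letters were singled out with the member sequences in view, and a match is a description of the sequence, not a binding site. Other lists ranged widely. The letters were found in promoters of 6 of 10 cytokine receptors and ligands of NK cells, 3 of 6 mast cell markers, 4 of 10 signalling adaptors and kinases, 2 of 5 B cell markers, 7 of 19 other NK receptors and 4 of 13 other granule proteins. They were found in 2 of 9 neutrophil markers, 1 of 6 macrophage markers, 1 of 6 ligands of the member receptors, 1 of 7 dendritic cell markers, 1 of 9 transcription factors and 0 of 7 T cell markers. The letters TCACAC, a core bound by T-box factors such as T-bet and Eomes, were found in 3 of 7 member promoters (*Gzmb*, *Ncr1* and *Nkg7*) and in 14.5% of all promoters. TGACGT, part of the cyclic AMP response element, was found in 2 of 7 (*Gzmb* and *Prf1*) against 7.51% of all. GGAAGT, an ETS core, was found in 2 of 7 (*Klrb1c* and *Prf1*) against 23.8%, and AGGTCA, the core of nuclear receptors, in 2 of 7 (*Klrb1c* and *Ncr1*) against 16.3%. CACGTG, the E-box through which clock proteins act, was found in 0 of 7 and in 7.15% of all promoters. None of the 10 matches to these other letters overlapped a match to TGTGGT.

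The table held CPM, counts scaled to the size of the library, and every value was a whole number of reads within 0.05 read, so the reads behind each value could be recovered. Libraries held 8658191 reads (control, ZT2), 9217493 (control, ZT14), 8365590 (MCS, ZT2) and 9953243 (MCS, ZT14), and 1 read was worth between 0.102 and 0.116 CPM. Ratios are given as log2 of the value plus 0.1 CPM, which understates the ratio of low genes, and brackets hold the 95% exact binomial interval of the ratio of reads without that addition, which covers counting error only and compares libraries, not mice. A gene was counted as higher or lower where the log2 ratio was beyond 1 and the mean of both libraries exceeded 1 CPM.

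The sorted cells carried the transcripts of macrophages at high level, with the 10 macrophage markers summing to between 25417 and 28011 CPM and *Adgre1*, which encodes F4/80, at 1086 to 1900 CPM. Transcripts of other cells were present too. The 9 B cell markers summed to 1102 to 1599 CPM, the 8 measured mast cell markers to 1063 to 2463 CPM and the 12 measured T cell markers to 38.0 to 70.2 CPM. The member genes summed to 75.6 CPM (ZT2) and 40.8 CPM (ZT14) in control, and 103 CPM (ZT2) and 48.3 CPM (ZT14) in MCS. These sums rest on 655, 371, 889 and 472 reads, at most 0.0106% of a library. In a bulk library, fewer cytotoxic cells in the sort and less RNA of these genes per cell cannot be told apart, nor can the cells that made the RNA be named.

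**Figure D1:**
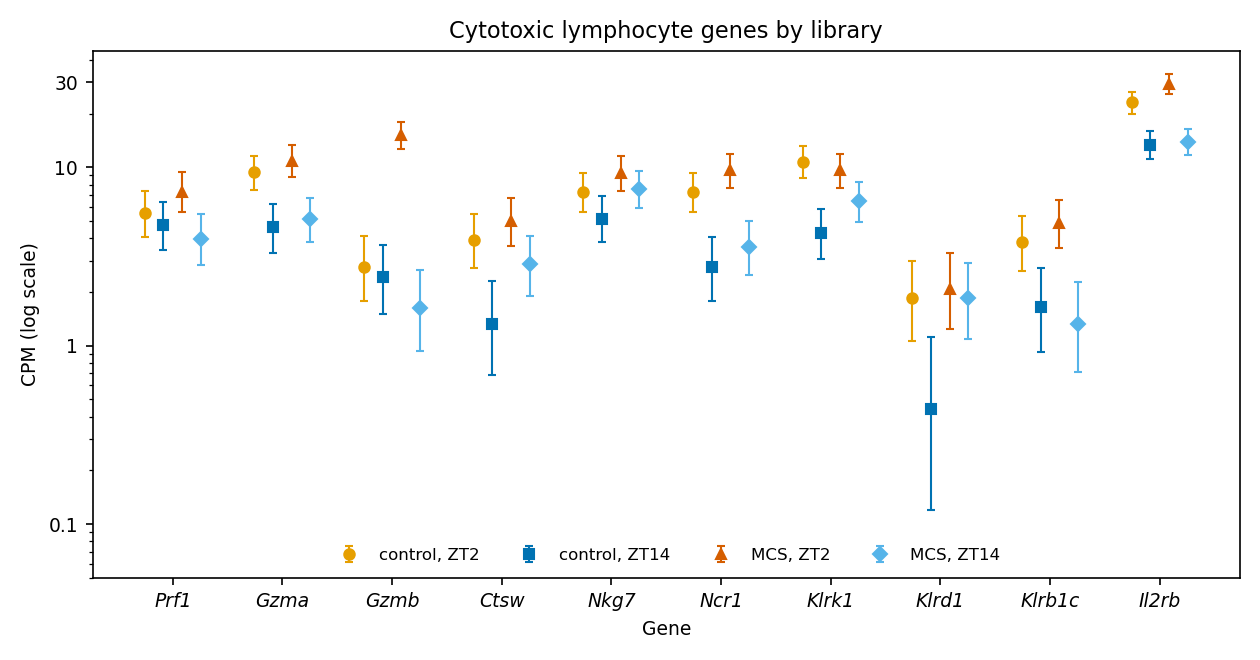
CPM of each of the 10 genes on a log axis in the 4 libraries, with error bars for the 95% Poisson interval of the reads. For 9 of the 10 genes, all but *Nkg7*, both ZT2 libraries sit above both ZT14 libraries, an order that 21.3% of 12511 genes with a mean above 1 CPM share. The margin is narrow for *Klrd1*, between control at ZT2 (1.85 CPM) and MCS at ZT14 (1.84 CPM). It is also narrow for *Gzmb*, between control at ZT2 (2.77 CPM) and control at ZT14 (2.42 CPM). *Gzmb* stands at 15.1 CPM in MCS at ZT2.

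Within a library the members had a median CPM, not scaled to gene length, of 6.41 CPM (ZT2) and 3.52 CPM (ZT14) in control, and 9.45 CPM (ZT2) and 3.78 CPM (ZT14) in MCS, where the median of all genes was between 14.0 and 14.3 CPM. Per kb of the longest coding transcript, and averaged over the 4 libraries, *Nkg7* was at 8.31 CPM per kb and *Gzma* at 7.53 CPM per kb. They were followed by *Il2rb* (4.75), *Ncr1* (3.88) and *Gzmb* (3.81), then *Ctsw* (2.64), *Klrk1* (2.43), *Prf1* (2.18), *Klrd1* (1.69) and *Klrb1c* (1.11), all in CPM per kb. Each neighbour in this order overlapped the next in its range over the 4 libraries. *Nkg7* ranged from 5.86 to 10.5 CPM per kb and *Gzma* from 4.63 to 10.9 CPM per kb. The order was not the same in every library, since *Gzmb* reached 10.5 CPM per kb in MCS at ZT2 and was at 1.14 CPM per kb in MCS at ZT14.

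The first comparison asks how levels differed between ZT2 and ZT14. In both arms the ZT2 cells were taken directly after the procedure and the ZT14 cells 12 h after it. Time of day and time since anaesthesia and handling therefore cannot be told apart. Members were higher at ZT2 in both arms. In control 10 of 10 ratios were above 0, with a median log2 ratio of 1.08, and in MCS 10 of 10 were above 0, with a median of 0.97, where the median over all tested genes was 0.00 in control and 0.01 in MCS. Of the members, 6 were past the fold in control (*Ctsw*, *Gzma*, *Klrb1c*, *Klrd1*, *Klrk1* and *Ncr1*), against a background of 2.42% of genes higher at ZT2. In MCS 5 were past it (*Gzma*, *Gzmb*, *Il2rb*, *Klrb1c* and *Ncr1*), against a background of 3.96%, and 0 members were lower past the fold in either arm. *Gzma*, *Klrb1c* and *Ncr1* were the 3 members higher in both arms. Both ZT2 libraries stood above both ZT14 libraries for 9 of 10 members, where 21.3% of genes had that order, so it is common among genes and is given as a description. The counting interval lay above no difference for 7 members in control, where 13.6% of tested genes did so, and for 8 in MCS, where 21.9% did. The summed members gave a log2 ratio of 0.89 [0.71, 1.08] in control and 1.09 [0.93, 1.26] in MCS.

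**Figure D2:**
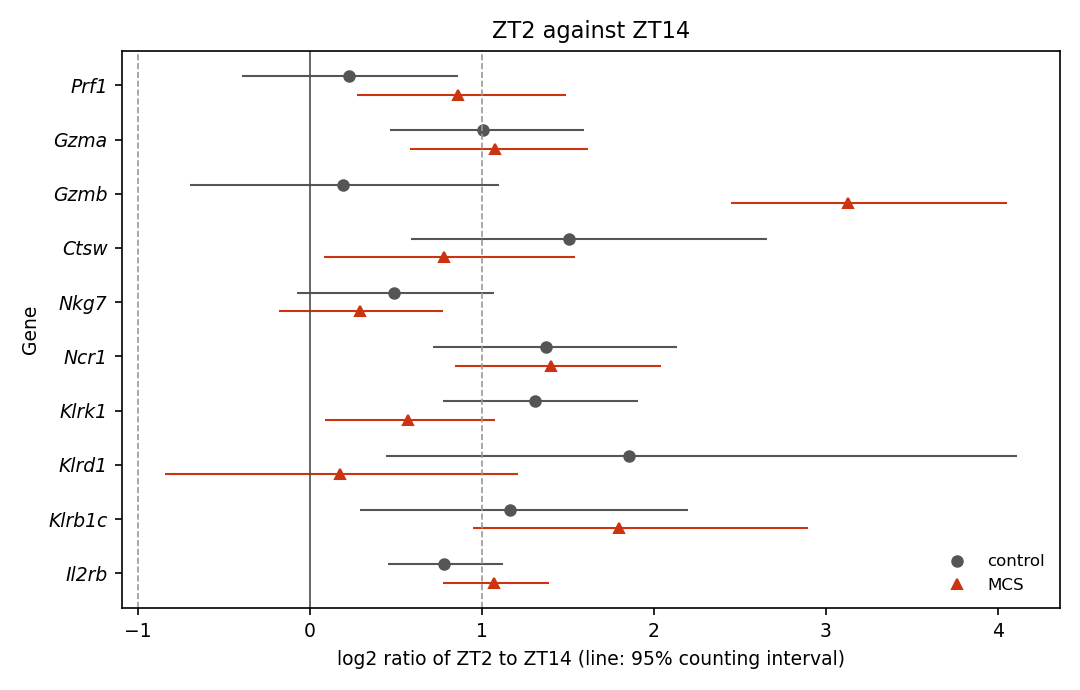
log2 ratio of ZT2 to ZT14 for each gene (x axis) in control (circles) and in MCS (triangles), with lines for the 95% counting interval and dashed lines at a log2 ratio of 1 in either direction. All 20 points lie to the right of 0, and *Gzmb* and *Klrd1* are the genes whose points are farthest apart between the arms.

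Among the receptors, *Ncr1*, which encodes NKp46, an activating receptor that marks NK cells, was measured at 7.28 and 9.63 CPM (control and MCS) at ZT2, and at 2.75 and 3.58 CPM (control and MCS) at ZT14. Both ZT2 libraries were above both ZT14 libraries, and the log2 ratio of ZT2 to ZT14 was 1.37 [0.72, 2.14] in control and 1.40 [0.84, 2.04] in MCS. *Klrb1c*, a member of the NKR-P1 family of lectin-like receptors, was at 3.81 and 4.87 CPM (control and MCS) at ZT2, and at 1.65 CPM and 1.33 CPM at ZT14. Its ratio was 1.16 [0.29, 2.20] in control and 1.80 [0.95, 2.90] in MCS, and the groups again did not overlap. The value is uncertain because 18.1% of the 50-base words of the gene's transcripts also occur in close relatives of the family, whereas those of the other 9 members shared 0%. *Klrb1a*, *Klrb1b* and *Klrb1c* summed together gave a ratio of 0.58 [0.08, 1.11] in control and 1.38 [0.91, 1.90] in MCS.

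*Klrk1* encodes NKG2D, an activating receptor for stress-induced ligands, and *Klrd1* encodes CD94, the partner chain of the NKG2A and NKG2C receptors. The genes lie beside each other in the NK gene complex on chromosome 6, at chr6:129610323-129623864 on the minus strand and chr6:129591782-129598775 on the plus strand, 11547 bases apart in the GENCODE M21 annotation of GRCm38. *Klrk1* was at 10.7 and 9.63 CPM (control and MCS) at ZT2, and at 4.28 CPM and 6.44 CPM at ZT14, with a log2 ratio of ZT2 to ZT14 of 1.31 [0.77, 1.90] in control and 0.57 [0.09, 1.08] in MCS. *Klrd1* was at 1.85 and 2.09 CPM (control and MCS) at ZT2, and at 0.439 CPM and 1.84 CPM at ZT14. Of its 4 libraries, 3 held 16 to 18 reads and the control library at ZT14 held 4, so its ratio of 1.85 [0.44, 4.11] in control rests on that library, and in MCS it was 0.17 [-0.84, 1.21].

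*Il2rb*, the chain shared by the interleukin-2 and interleukin-15 receptors, supplied the most reads of the members, between 122 and 253 in a library. It was at 23.1 and 29.3 CPM (control and MCS) at ZT2, and at 13.4 CPM and 13.9 CPM at ZT14. Both ZT2 values were above both ZT14 values, with a ratio of 0.78 [0.45, 1.12] in control and 1.07 [0.77, 1.39] in MCS. Without this gene the summed members gave 0.94 in control and 1.10 in MCS, so the direction of the sum did not rest on it.

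Among the granule proteins, *Gzma*, a granzyme that cuts after basic residues, was at 9.35 and 10.9 CPM (control and MCS) at ZT2, and at 4.61 CPM and 5.11 CPM at ZT14. Its log2 ratio in control was only just past the fold, with an interval of 0.46 to 1.59, and in MCS it was 1.08 [0.58, 1.62]. *Ctsw*, a cysteine protease of cytotoxic lymphocytes, was at 3.93 and 4.99 CPM (control and MCS) at ZT2, and at 1.32 CPM and 2.86 CPM at ZT14, with a ratio of 1.51 [0.59, 2.66] in control and 0.78 [0.08, 1.54] in MCS. For both genes the ZT2 libraries stood above the ZT14 libraries without overlap.

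*Prf1*, which encodes perforin, was at 5.54 and 7.31 CPM (control and MCS) at ZT2, and at 4.72 CPM and 3.99 CPM at ZT14. Its ratio of ZT2 to ZT14 was 0.23 [-0.39, 0.86] in control and 0.86 [0.28, 1.49] in MCS, neither past the fold. *Nkg7*, a granule membrane protein needed for degranulation, was at 7.28 and 9.28 CPM (control and MCS) at ZT2, and at 5.16 CPM and 7.57 CPM at ZT14. Its ratio was 0.49 [-0.07, 1.07] in control and 0.29 [-0.18, 0.77] in MCS, and here the groups overlapped, since control at ZT2 was below MCS at ZT14.

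*Gzmb*, the granzyme that cuts after aspartate and activates caspases, was at 2.77 CPM (ZT2) and 2.42 CPM (ZT14) in control, and 15.1 CPM (ZT2) and 1.64 CPM (ZT14) in MCS, on 24, 22, 130 and 16 reads. Only MCS at ZT2 was high, and the other 3 libraries were low. The log2 ratio of ZT2 to ZT14 was 0.19 [-0.70, 1.10] in control and 3.13 [2.45, 4.05] in MCS.

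The second comparison asks how MCS differed from control. Directly after the procedure, at ZT2, *Gzmb* was 5.44-fold higher in MCS than in control (log2 ratio 2.40 [1.81, 3.14]), and it was 1 of 10 members past the fold, against a background of 1.44% of genes higher. Of the members, 9 had a ratio above 0 and 1 below (*Klrk1*, -0.16 [-0.60, 0.28]). Their median log2 ratio was 0.35, where that of all tested genes was 0.00. The interval lay above no difference for 2 members, *Gzmb* and *Il2rb* (0.34 [0.07, 0.62]), against 11.5% of tested genes. The other 7 members above 0 had ratios between 0.17 (*Klrd1*) and 0.40 (*Ncr1*), each with an interval that included 0. The summed members gave 0.45 [0.30, 0.60], and without *Gzmb* the sum gave 0.27 [0.12, 0.43].

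**Figure D3:**
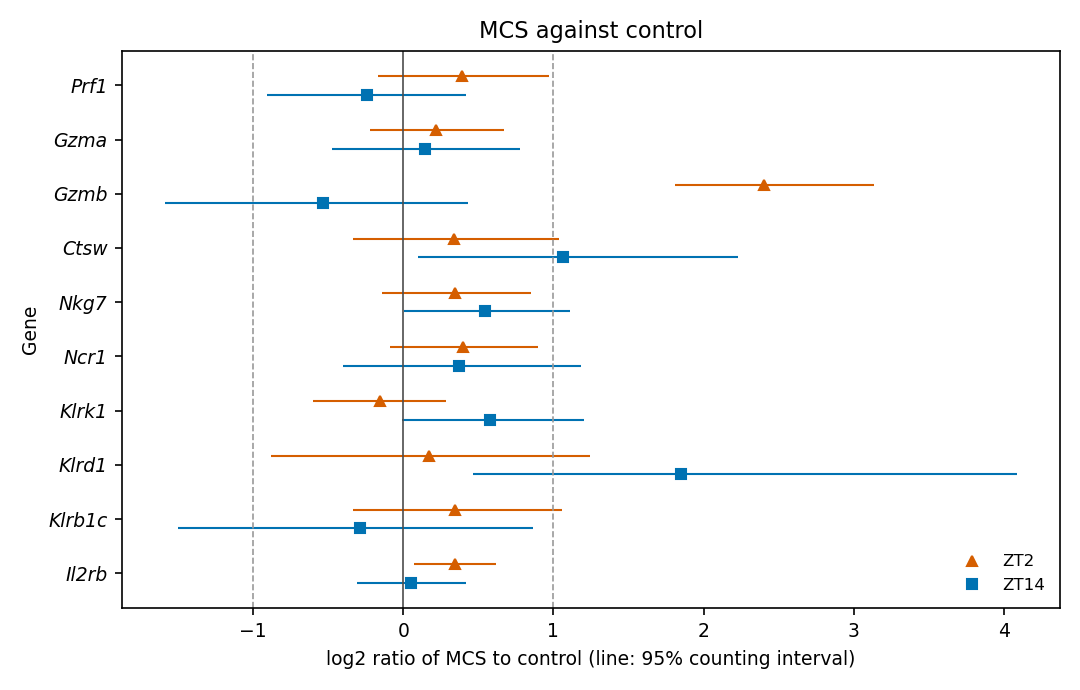
log2 ratio of MCS to control for each gene (x axis) at ZT2 (triangles) and at ZT14 (squares), with lines for the 95% counting interval and dashed lines at a log2 ratio of 1 in either direction. *Gzmb* at ZT2 (2.40) and *Klrd1* at ZT14 (1.85) lie farthest from 0, and most other intervals include 0.

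At ZT14, 12 h after MCS, *Gzmb* had a log2 ratio of MCS to control of -0.54 [-1.59, 0.43]. Past the fold were 2 members, *Klrd1* (1.85 [0.46, 4.09]) and *Ctsw* (1.06 [0.10, 2.23]), against a background of 1.84% of genes higher. Both rest on few reads in control at ZT14, 4 for *Klrd1* and 12 for *Ctsw*, where MCS held 18 and 28. Intervals lay above no difference for 3 members, these and *Nkg7* (0.54, with a lower bound of 0.00477), against 18.7% of tested genes. Of the members, 7 ratios were above 0 and 3 below (*Gzmb*, *Klrb1c* and *Prf1*), with a median of 0.26 where that of all tested genes was 0.00. The summed members gave 0.24 [0.05, 0.44].

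A count model with a term for MCS and a term for time, fitted to the recovered reads of 12404 genes by edgeR's quasi-likelihood test, takes the effect of each factor to be the same at both levels of the other, and leaves 1 residual degree of freedom. At a Benjamini-Hochberg adjusted p below 0.05 it called 1.44% of all genes higher at ZT2 and 0.161% higher in MCS. Because the members were chosen with their levels known, the model is no test of them. Its counts for members appear only for the MCS term, as alternative counts beside the other settings below.

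The genes around the members were read from lists. Beside the counts for these and for the cell type lists below stand 2.42% of all tested genes higher past the fold at ZT2 in control and 3.96% in MCS. Of the other NK receptors and surface molecules 24 of 31 were measured, and their median log2 ratio of ZT2 to ZT14 was 0.66 in control and 1.09 in MCS. Those medians include genes of few reads. Over the genes with a mean above 1 CPM, 16 in each arm, the median was 0.43 in control and 0.85 in MCS. The summed list gave 0.26 [0.17, 0.35] in control and 0.17 [0.08, 0.26] in MCS, less than the summed members. Most of that sum came from *Cd244*, *Klra2* and *S1pr5*, with means over the libraries of 88.7, 47.8 and 31.8 CPM, out of 237 CPM for the list. It therefore says little of the list's lower genes. Higher past the fold at ZT2 in control were 4 (*Itga1*, *Klra3*, *Klrb1f* and *Klrg1*), and in MCS 7 (*Cd7*, *Itga1*, *Klra3*, *Klrb1b*, *Klrb1f*, *Klrc1* and *Klri2*), with 0 lower in either. The counting interval of *Klrg1* in control, -0.16 to 2.41, included no difference. *Itga1*, the integrin chain of tissue-resident NK cells and innate lymphoid cells, was at 5.66 and 5.68 CPM (control and MCS) at ZT2, and at 1.87 CPM and 2.25 CPM at ZT14. Ratios were below 0 for 4 genes of the list in control and for 3 in MCS. *S1pr5*, a receptor by which NK cells leave tissue, was lower at ZT2 in both arms without passing the fold (20.4 CPM in control and 27.1 CPM in MCS, against 38.0 CPM and 41.7 CPM at ZT14). *Klra2* had a ratio of 0.89 [0.68, 1.11] in control and -0.42 [-0.61, -0.23] in MCS.

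Cytokine receptors and ligands of NK cells were measured for 13 of 15 genes. The same 5 were higher past the fold at ZT2 in control and in MCS, namely *Il7r*, *Il18r1*, *Il18rap*, *Il15ra* and *Ccl5*. *Il18r1* and *Il18rap* encode the chains of the interleukin-18 receptor, which primes NK cells. *Il18rap* was at 21.0 and 33.3 CPM (control and MCS) at ZT2, and at 8.90 CPM and 10.5 CPM at ZT14. *Il7r*, the interleukin-7 receptor chain of T cells and innate lymphoid cells, was at 24.7 CPM and 29.0 CPM at ZT2, and at 7.25 CPM and 7.77 CPM at ZT14. *Ccl5*, a chemokine of activated lymphocytes that macrophages also make, was at 18.0 CPM and 25.2 CPM at ZT2, and at 6.37 CPM and 9.41 CPM at ZT14. *Il15*, whose product macrophages present to NK cells, was lower past the fold at ZT2 in control (1.04 CPM against 2.42 CPM) and not in MCS (1.51 CPM against 1.74 CPM).

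Transcription factors of NK and cytotoxic T cells were measured for 12 of 13 genes, with 3 higher past the fold at ZT2 in control (*Nfil3*, *Stat4* and *Tox*) and 5 in MCS (*Eomes*, *Gata3*, *Prdm1*, *Stat4* and *Tcf7*). The counting interval of *Tox* in control, -0.05 to 3.05, included no difference. *Stat4*, which carries the interleukin-12 signal, was at 25.4 and 39.0 CPM (control and MCS) at ZT2, and at 10.8 CPM and 8.69 CPM at ZT14. *Eomes*, a T-box factor of NK cells, was at 7.28 CPM and 12.8 CPM at ZT2, and at 4.72 CPM and 4.50 CPM at ZT14. *Runx3*, a RUNX factor of cytotoxic lymphocytes that other leukocytes also use, was at 40.3 CPM and 43.7 CPM at ZT2, and at 47.8 CPM and 32.0 CPM at ZT14, in no order by time.

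Signalling adaptors and kinases were measured for 14 of 14 genes. *Txk*, a lymphocyte kinase, was higher past the fold at ZT2 in both arms, with 4.39 and 5.92 CPM (control and MCS) at ZT2 against 1.98 CPM and 2.45 CPM at ZT14. *Hcst*, which encodes DAP10, the adaptor of NKG2D, went its own way. It was at 7.16 and 3.48 CPM (control and MCS) at ZT2, and at 5.93 CPM and 12.3 CPM at ZT14, so that MCS was lower than control past the fold at ZT2 and higher at ZT14.

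Granule proteins and release machinery outside the members, measured for 14 of 19 genes, had a median log2 ratio of ZT2 to ZT14 of 0.03 in control and 0.06 in MCS. Past the fold were 0 of them in control and 1 in MCS (*Serpinb6b*). Most of the reads of this list came from genes that macrophages use for their own lysosomes and granules, such as *Lamp1* at 796 to 859 CPM and *Srgn*, the granule proteoglycan serglycin, at 387 to 461 CPM. Granzymes K and M (*Gzmk* and *Gzmm*) held at most 5 reads in any library.

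**Figure D4:**
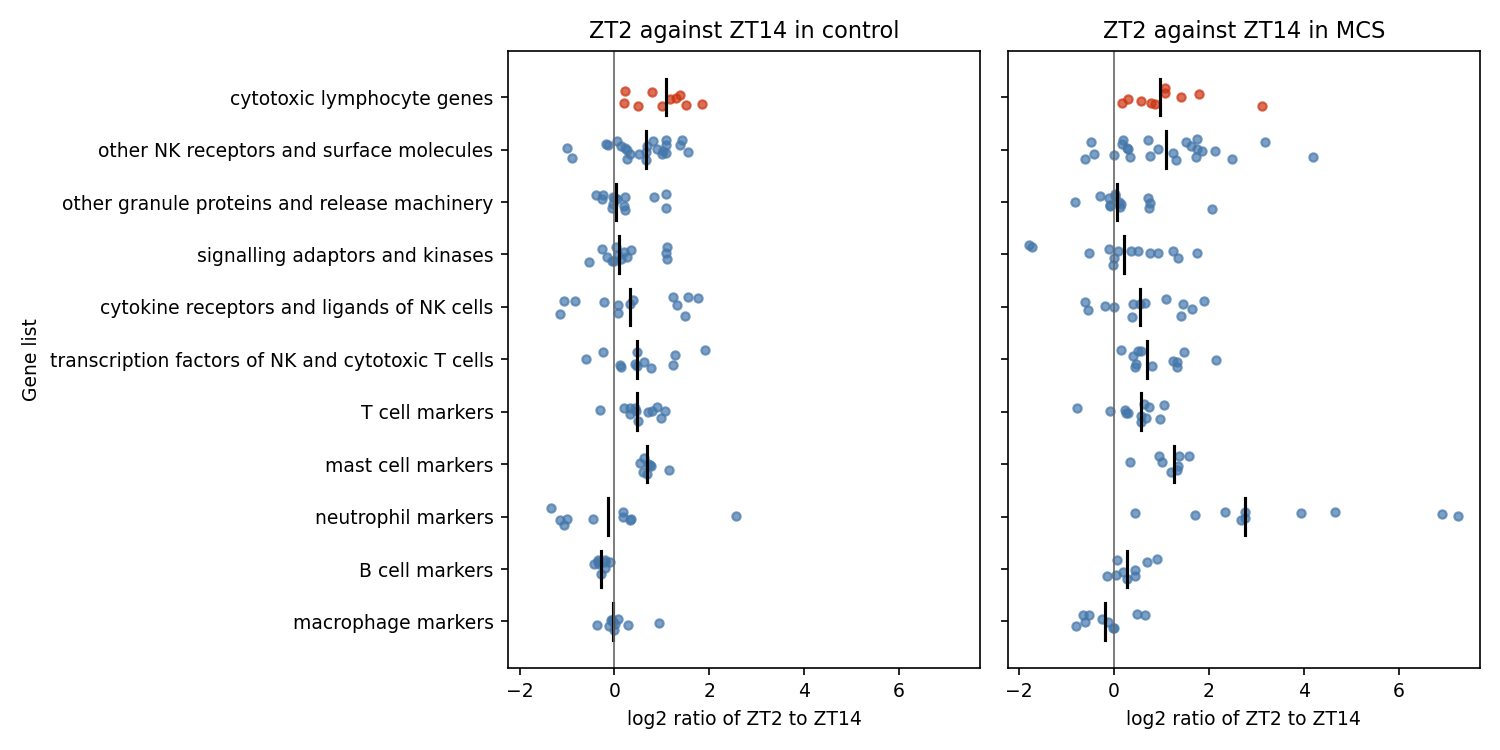
log2 ratio of ZT2 to ZT14 (x axis, log2 of CPM plus 0.1) in control (left) and in MCS (right), with 1 point for each measured gene of a list and a black bar at the list's median. The cytotoxic lymphocyte genes, other NK receptors, T cell markers and mast cell markers have medians to the right of 0 in both arms, neutrophil and B cell markers in MCS only. Macrophage markers have a median of -0.02 in control and -0.19 in MCS.

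Transcripts of other cell types moved with the members, and their part in the results was not tested. T cell markers, measured for 12 of 17 genes, summed to 57.1 and 70.2 CPM (control and MCS) at ZT2, and to 38.0 CPM and 48.6 CPM at ZT14, which gives a log2 ratio of ZT2 to ZT14 of 0.58 [0.38, 0.79] in control and 0.53 [0.36, 0.71] in MCS. Of these, 11 of 12 were above 0 in control and 10 of 12 in MCS, with 1 past the fold in each (*Cd3d* and *Cd4*). *Cd3d*, *Cd3e* and *Cd3g*, the signalling chains of the T cell receptor, summed to 15.6 and 18.1 CPM (control and MCS) at ZT2, and to 8.79 CPM and 12.8 CPM at ZT14. *Cd3d* alone went the other way in MCS, with 1.39 CPM at ZT2 and 2.45 CPM at ZT14 (log2 ratio -0.78 [-1.95, 0.24]). The other marker below 0 in MCS was *Themis* (-0.09). T cell transcripts were therefore present in every library, and the granzymes, perforin, *Nkg7* and *Il2rb* are expressed by T cells as well as by NK cells.

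Mast cell markers, measured for 8 of 9 genes, were also higher at ZT2 in both arms, with sums of 1956 and 2463 CPM (control and MCS) at ZT2, and of 1250 CPM and 1063 CPM at ZT14. At ZT14 their sum was lower in MCS than in control, where the sum of the members was higher. Of the mast cell markers, 3 went the other way at ZT14, among them *Tpsab1* (log2 ratio of MCS to control 0.99 [0.75, 1.24]) and *Hdc* (0.53 [0.35, 0.72]). For ZT2 against ZT14 all 8 ratios were above 0 in both arms, with 1 past the fold in control and 6 in MCS. The log2 ratio of the sum of ZT2 to ZT14 was 0.65 [0.61, 0.68] in control and 1.21 [1.18, 1.25] in MCS, beside 0.89 and 1.09 for the members. Dendritic cell markers, measured for 8 of 8 genes, summed to 71.3 and 90.7 CPM (control and MCS) at ZT2, and to 58.1 CPM and 60.1 CPM at ZT14. Their log2 ratio of ZT2 to ZT14 was 0.29 [0.12, 0.46] in control, with 0 past the fold, and 0.59 [0.44, 0.75] in MCS, with 3 past it (*Clec9a*, *Flt3* and *Siglech*), and that of MCS to control at ZT2 was 0.35 [0.19, 0.50]. B cell markers were ordered otherwise, with sums of 1314 and 1278 CPM (control and MCS) at ZT2, and of 1599 CPM and 1102 CPM at ZT14. The macrophage marker sum had a log2 ratio of ZT2 to ZT14 of 0.04 in control and -0.14 in MCS, with 0 of 10 genes past the fold. *Lyz2*, at 17344 to 18847 CPM, supplied most of that sum. In MCS the interval lay below no difference for 7 of the 10 and above it for 2. *Adgre1* had a ratio of -0.04 in control and -0.81 [-0.84, -0.77] in MCS, and *Mertk* 0.95 [0.83, 1.07] in control and 0.64 [0.53, 0.75] in MCS.

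The library in which *Gzmb* was high, MCS at ZT2, was also high in transcripts of neutrophils. Against control at ZT2, 6 of the 10 measured neutrophil markers were higher past the fold (*Ltf*, *Mmp8*, *Mpo*, *Ngp*, *S100a8* and *S100a9*), where 1.44% of all tested genes were. The whole list summed to 267 CPM against 146 CPM in control at ZT2, 123 CPM in control at ZT14 and 122 CPM in MCS at ZT14. Leaving out *Mmp9* and *Cxcr2*, a choice made after their values were seen, the sum was 94.8 CPM for MCS at ZT2, 17.4 CPM in control at ZT2, 19.0 CPM in control at ZT14 and 6.03 CPM in MCS at ZT14. Ly6G, the neutrophil surface protein, was gated out in the sort. Also higher past the fold in MCS at ZT2 than in control at ZT2 were the NK receptor genes *Klrc1* (7.77 CPM against 3.35 CPM), *Klrb1b* (5.80 CPM against 2.08 CPM), *Cd7* (5.22 CPM against 2.19 CPM) and *Klre1* (1.74 CPM against 0.808 CPM). The counting interval of *Klre1*, -0.28 to 2.64, included no difference. These are the risers of a list that did not rise as a whole. Of its 24 measured genes, 14 ratios of MCS to control at ZT2 were above 0 and 10 below, with a median of 0.01. The summed list gave 0.02 [-0.07, 0.11]. *Gata3*, a transcription factor of T cells and innate lymphoid cells, was at 8.93 CPM against 4.27 CPM, *Cd8b1*, a chain of CD8, at 2.32 CPM against 0.693 CPM, and *Siglech*, a marker of plasmacytoid dendritic cells, at 2.78 CPM against 1.15 CPM. Each was the only gene higher past the fold in its list, of 12 transcription factors, 12 T cell markers and 8 dendritic cell markers. *Cd8b1* rests on 20 reads against 6, and *Siglech* on 24 against 10. *Cd8b1* was also higher past the fold in MCS at ZT14 (1.06 [-0.11, 2.55]). The part of any of these transcripts in the *Gzmb* value was not tested.

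**Figure D5:**
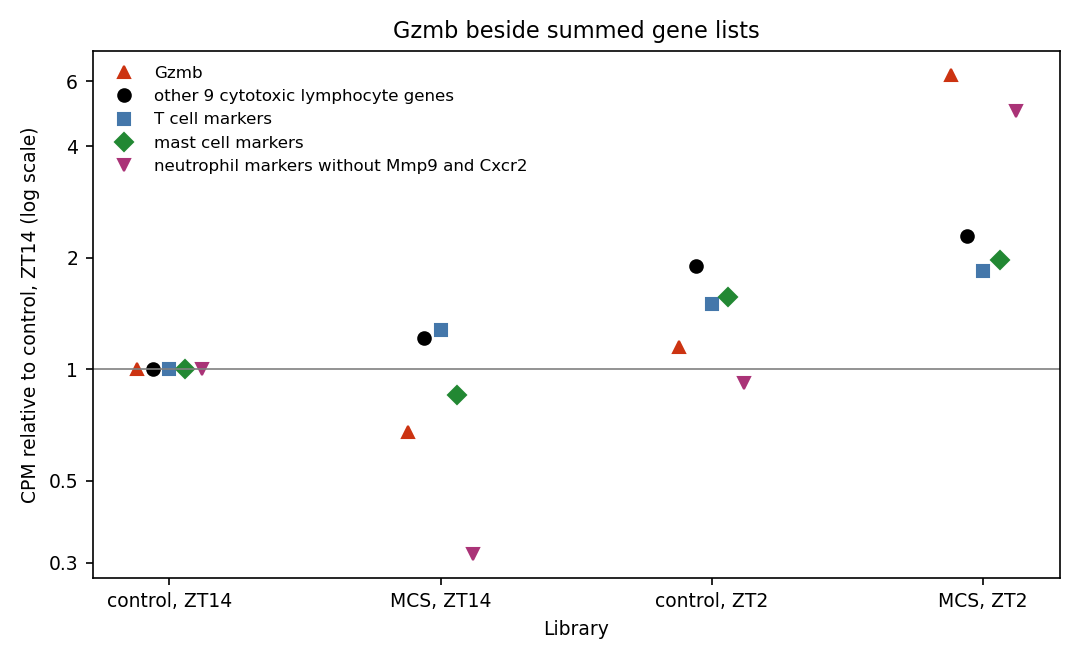
CPM of *Gzmb*, of the other 9 cytotoxic lymphocyte genes and of 3 marker lists in each library (x axis), each divided by its own value in control at ZT14 (y axis, log scale). In MCS at ZT2 *Gzmb* (15.1 CPM) and the neutrophil markers without *Mmp9* and *Cxcr2* (94.8 CPM) stand above the other lists. Those lie close together. *Mmp9* and *Cxcr2* were left out after their values were seen, and the height of the neutrophil list rests on that choice. With both kept, the neutrophil sum of that library is 267 CPM, where control at ZT14 has 123 CPM. Scaled alike, this is below the other 9 cytotoxic lymphocyte genes (88.0 CPM, where control at ZT14 has 38.3 CPM).

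Genes whose profile over the 4 libraries was most like that of the summed members were found by the distance between centred log2 values, among 12501 genes with a mean above 1 CPM. The nearest was *Cit*, which encodes citron kinase, at a distance of 0.0822 and with 6.58 CPM (ZT2) and 3.52 CPM (ZT14) in control, and 8.82 CPM (ZT2) and 3.89 CPM (ZT14) in MCS. *Skap1*, a T cell adaptor and one of the T cell markers, came next at 0.158, and *Txk*, the kinase named above, was ninth at 0.186. The others among the 10 nearest were *2900005J15Rik*, *Rnls*, *Pcolce*, *2010001E11Rik*, *Hpgd*, *Klhl38* and *Dennd4c*. With 4 libraries many genes fall in such an order, and likeness says nothing of shared function or control.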

How the data were processed

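Bulk RNA-seq of sorted peritoneal macrophages was analysed, with 1 library for each of 4 conditions. The authors trimmed reads (Trimmomatic 0.38), estimated counts with RSEM 1.3.0 and Bowtie2, with the build mm10 named in the processing notes, and normalized them, edgeR being the tool named, and deposited CPM values for 15298 genes. Dividing each column by the value of 1 read recovered whole reads for 100% of values within 0.05 read, with 8365590 to 9953243 reads in a library, and 3 reads correspond to 0.307 to 0.348 CPM. All 4 columns were used.

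Ratios were taken as log2(CPM + 0.1), with a threshold of 1 and a mean above 1 CPM over both libraries. Intervals are 95% exact conditional binomial (Clopper-Pearson) intervals and, on single values, exact Poisson intervals, both covering counting error only. With 1 library for each condition, no test between conditions at 1 time was made. The count model was edgeR's quasi-likelihood test (edgeR 4.0.16, R 4.3.3), additive in MCS and time, on genes with at least 40 reads in all. Other steps used Python 3.11.15, scipy 1.17.1, pandas 2.3.3, matplotlib 3.10.9 and numpy 2.4.6. The steps were tested on simulated data with known ratios.

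The member genes and the gene lists were chosen with earlier results of these data known. Named genes were all members, list genes past the fold or among the 4 of highest mean CPM in a list, the 10 genes of most like profile, and a few others of the lists picked after their values were seen (such as *S1pr5*, *Runx3*, *Gzmk*, *Gzmm* and the *Raet1* genes). TGTGGT was singled out after the sequences were seen. Gene positions and transcript lengths came from GENCODE M21 (GRCm38), and promoters from a RefSeq table of GRCm38.p6, the build called mm10 in the labels. Alternatives were the pseudocount, the filter, the threshold, the scaling, the interval and the count model, and, chosen after seeing the data, the sum without *Gzmb*. A result on 1 list gene is not reported here.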

Additional observations from a re-analysis of the deposited data

Results flagged for a closer look

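Of the 10 members, 4 had a log2 ratio of MCS to control on opposite sides of 0 at ZT2 and ZT14, with 1 library in each condition, and the difference between the time points was not tested. The median ratio over all genes with a mean above 1 CPM was 0.00 at both times. The share of all genes that changed side was not computed, so the count is not read as a trait of the members. The ratio at ZT2 minus that at ZT14 was 2.94 for *Gzmb* (2.40 and -0.54). It was 0.63 for *Prf1* (0.39 and -0.24), 0.64 for *Klrb1c* (0.35 and -0.29) and -0.73 for *Klrk1* (-0.16 and 0.58). For *Prf1*, *Klrb1c* and *Klrk1* the counting interval included 0 at both times, and for *Gzmb* it lay above 0 at ZT2.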

How the results depend on the processing

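No paired analysis was possible because each condition has 1 library. No value changed direction under the alternatives run. The summed log2 ratio ranged from 0.27 to 0.49 for MCS at ZT2, 0.24 to 0.35 for MCS at ZT14, 0.88 to 0.99 for ZT2 against ZT14 in control and 0.92 to 1.12 in MCS. The low ends for MCS at ZT2 (0.27) and for time in MCS (0.92) came without *Gzmb*. Counts of members past the threshold moved more. For MCS at ZT2 the count was 1, with 2 by the interval and 0 in edgeR's count model. For MCS at ZT14 it was 2, with 0 at a pseudocount of 1, 5 at a log2 threshold of 0.5, 0 at a threshold of 2 and 0 in the count model. For time in control it was 6, with 3 at a pseudocount of 1 and 0 at a threshold of 2. For time in MCS it was 5, with 8 at a threshold of 0.5, 1 at a threshold of 2 and 8 by the interval. Counts for the other lists stayed near the main value in 10 cases and moved in 38, while 160 ratios of single members kept their direction. edgeR's MCS term spans both times, so the same 0 stands for ZT2 and for ZT14. In that term 1 member had an unadjusted p below 0.05 (quasi-likelihood test), against 2.45% of all genes fitted. The members were chosen with their levels known, so counts from that model are given as alternative counts and support nothing about them. TMM factors computed from the recovered reads gave the deposited scaling back. Levels rest on 4 to 253 reads for a gene and library, which limits what 1 gene can show, and no setting supplies the missing replicates.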

Other observations

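Ligands of the member receptors were measured for 11 of 13 genes. Only 5 of them in ZT2 against ZT14 in control, and 4 in each other comparison, had the mean above 1 CPM that the rule asks. The rest could not pass it. Past the fold were 0 in any of the 4 comparisons, where 1.44% to 3.96% of all tested genes were higher, so a count of 0 says little. *H2-T23*, whose product Qa-1 is read by the CD94 receptors, was at 158 CPM (ZT2) and 142 CPM (ZT14) in control, and 134 CPM (ZT2) and 208 CPM (ZT14) in MCS. *Clec2d*, a ligand of the NKR-P1 family, was at 98.7 CPM and 97.8 CPM at ZT2 in control and MCS, and at 81.2 CPM and 73.8 CPM at ZT14. The NKG2D ligands *H60b* (8.38 to 11.0 CPM) and *Ulbp1* (3.12 to 4.87 CPM) varied little between libraries. *Raet1a* and *Raet1e*, further NKG2D ligands whose family members are close copies of each other, held 9 and 7 reads in MCS at ZT2 and 0 in the other 3 libraries, below the mean of 1 CPM asked of a gene, so no ratio is given.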
